A study of Homo sapiens with 6 samples.

Results

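The classical MYB target genes described here are MYC, BCL2, KIT, ADA and CCNE1, 5 of the 58288 genes with an expression value. They were taken by name, as genes long reported to be regulated by MYB, and matched by Ensembl ID, and 4 of the 5 were abundant enough to be among the 12634 genes tested. The cells were K562, an erythroleukemic line of human origin, with stably integrated 3xFLAG-2KR-Myb-HA or 3xFLAG-ANAA-Myb-HA in the genome and with their own MYB depleted by the siRNA si2992, directed at the untranslated end of its mRNA. Both kinds of cells were selected in 200 µg/ml G418, both received the same siRNA, and RNA was harvested 24 h after transfection from 3 biological replicates of each, called cultures here. 2KR-MYB has its SUMO-acceptor lysines exchanged for arginine and so cannot be SUMOylated there, whereas ANAA-MYB has a mutated SUMO-interaction motif, through which MYB binds SUMO without being linked to it. Each rescue was 1 single cell clone, so the mutant and the clone cannot be told apart, and p-values measure the spread between cultures of 1 clone. Libraries of control, knockdown or wild-type rescue cells were not analysed here, so every comparison is 2KR-MYB against ANAA-MYB.

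MYB is a DNA-binding transcription factor of immature blood cells that keeps progenitors proliferating and holds back their differentiation. SUMO is a small protein that is attached to lysines of other proteins, and on MYB it lowers the transactivation of target genes. Genes such as MYC, BCL2 and KIT have long been used as readouts of MYB activity, because they link the factor to cell growth, survival and cytokine response.

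Expression was deposited as FPKM, fragments counted relative to transcript length and to the total of the library, so that levels can be set side by side between genes. FPKM holds no read counts, and the depth behind these values is unknown. Summed FPKM lay between 579920 and 633662 per library. The correlation of log2(FPKM + 1) between libraries was 0.983 to 0.989 over the 6 pairs within a rescue and 0.968 to 0.973 over the 9 pairs between rescues. The test was limma on log2(FPKM + 1) with Benjamini-Hochberg adjustment over all tested genes and a threshold of 0.01. Fold changes are 2KR-MYB minus ANAA-MYB on this scale, and the added 1 makes those of weakly expressed genes too small. With 3 cultures against 3, an exact two-sided permutation test of a single gene cannot give a p below 0.1.

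MYB binds DNA at short elements with the core AACTG or AACGG, and these letters were looked for on both strands of the RefSeq promoters (GRCh38.p14), 250 bases before to 50 bases after the gene start. Of the 4 members with an entry, BCL2, KIT, ADA and CCNE1, only ADA held the core, at 2 places, and at the second of the windows printed here the core also followed a T. The core stood in 52.4% of 35116 promoters, and the core after a C or T in 25.7%. Both ADA windows are printed because they place the recognition letters beside the start of a member, on the gene strand of chromosome 20, with the core in capitals. In the first the core begins 68 bases before the gene start, and in the second, where it is read on the other strand, 33 bases before it.
ADA, chr20:44651750-44651779, minus strand: gcgggccccgggAACGGcggcgggcggggc
ADA, chr20:44651715-44651744, minus strand: gcggggcccggcCCGTTaagaagagcgtgg

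KIT was the higher with 2KR-MYB, and CCNE1 the higher with ANAA-MYB. MYC, by far the most abundant of the genes, showed no difference that could be told from the spread between cultures. ADA lay higher in every culture of the 2KR-MYB rescue but did not pass the threshold, and BCL2 was close to the lower limit of the data in both rescues. Thus 2 of the 4 tested members passed, where 13.0% of all tested genes did, 5.57% with a higher level in 2KR-MYB cultures and 7.42% in ANAA-MYB cultures. The balance of all calls, 704 against 938, turned to 898 against 651 with upper quartile scaling, under which KIT and CCNE1 still passed. The median log2 fold change of the 4 was 0.17, against -0.02 over all tested genes. The libraries of both rescues did not overlap for 3 of the 4 tested members and for BCL2, which was also the case for 44.9% of all tested genes. The exact permutation p was 0.1, the smallest possible, for KIT, ADA, CCNE1 and BCL2, and 0.7 for MYC.

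**Figure D1:**
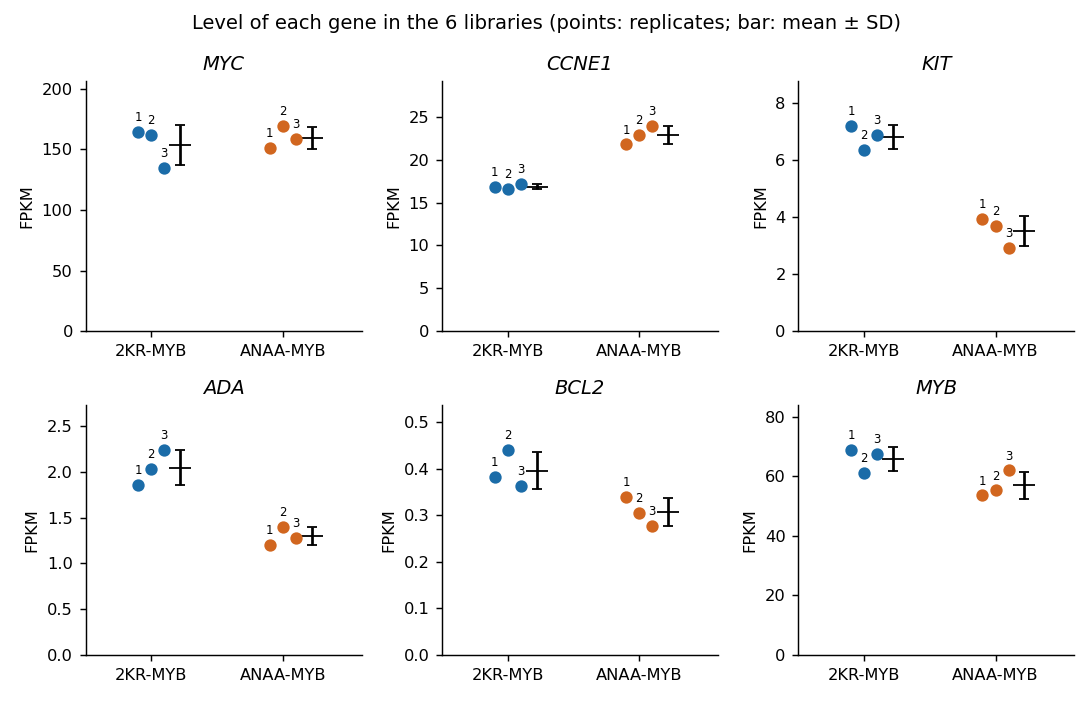
FPKM of MYB and the 5 classical target genes in each library, on a linear axis from 0 in every panel, with 1 numbered point per culture and beside the points a bar at the mean with SD error bars over the 3 cultures of a rescue. The points of KIT, ADA, BCL2 and CCNE1 fall into separate ranges by rescue, whereas those of MYC and MYB overlap.

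MYB itself (ENSG00000118513, chromosome 6, 135181308 to 135219172, GRCh38) was looked at first, since the mRNAs of the rescue constructs carry its coding sequence and cannot be separated here from what remained of the endogenous mRNA. MYB was read at 69.0, 61.2 and 67.5 FPKM in 2KR-MYB cultures and at 53.6, 55.3 and 62.0 FPKM in ANAA-MYB cultures. One culture of the ANAA-MYB rescue exceeded the lowest of the 2KR-MYB rescue, so the groups overlapped. The means were 65.9 ± 4.15 and 57.0 ± 4.45 FPKM (SD, n = 3 each), a log2 fold change of 0.21 with a 95% interval of 0.05 to 0.37 and an adjusted p of 0.0616 in limma. The exact permutation p was 0.2. A lncRNA, LOC105378011, overlaps the MYB locus in the RefSeq annotation.

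MYC (ENSG00000136997, chromosome 8, 127735434 to 127742951) encodes the growth-promoting transcription factor that drives ribosome production and cell cycle entry. It stood at 165, 162 and 135 FPKM in 2KR-MYB cultures and at 151, 169 and 159 FPKM in ANAA-MYB cultures. The third 2KR-MYB culture was the lowest of all 6, and the other 2KR-MYB cultures lay within the range of the ANAA-MYB rescue. Means of 154 ± 16.7 and 160 ± 9.16 FPKM (SD, n = 3 each) gave -0.06 as the log2 fold change (SE 0.08, 95% interval -0.25 to 0.13, adjusted p = 0.636 in limma). MYC was thus measured with a precision that leaves room for a difference of up to 0.25 on the log2 scale in one direction and 0.13 in the other. With 95.7% of tested genes below its mean level, MYC was in the upper range of the K562 transcriptome in both rescues. The sign of the small difference turned to 0.0023 with upper quartile scaling and to 0.03 without the third 2KR-MYB culture.

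KIT (ENSG00000157404, chromosome 4, 54657957 to 54740715) encodes the receptor tyrosine kinase for stem cell factor, needed by early blood progenitors. The cultures of the 2KR-MYB rescue gave 7.19, 6.35 and 6.89 FPKM and those of the ANAA-MYB rescue 3.93, 3.70 and 2.94 FPKM. Every 2KR-MYB culture lay above every ANAA-MYB culture. KIT averaged 6.81 ± 0.426 against 3.52 ± 0.521 FPKM (SD, n = 3 each), a ratio of 1.93. The log2 fold change was 0.79 (SE 0.10, 95% interval 0.57 to 1.02) with a limma adjusted p of 0.00103, and 3.06% of tested genes had a larger one in either direction. KIT passed under every alternative setting, with adjusted p-values of at most 0.0097.

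ADA (ENSG00000196839, chromosome 20, 44619522 to 44651699) encodes adenosine deaminase, which removes adenosine and deoxyadenosine and is essential for lymphocytes. Its levels were 1.86, 2.03 and 2.24 FPKM in 2KR-MYB cultures and 1.20, 1.40 and 1.28 FPKM in ANAA-MYB cultures. The groups did not overlap, although all values were close to the filter of 1 FPKM. Means of 2.04 ± 0.192 and 1.29 ± 0.0987 FPKM (SD, n = 3 each) differed by a ratio of 1.58. In limma the log2 fold change was 0.41 (SE 0.10, 95% interval 0.18 to 0.63, adjusted p = 0.0185), which missed the threshold of 0.01 but would pass one of 0.05, as 26.9% of tested genes would. Adjusted p-values ranged from 0.0159 to 0.0565 over the alternatives, and the log2 fold change was 0.62 and 0.65 with pseudocounts of 0.1 and 0.01.

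CCNE1 (ENSG00000105173, chromosome 19, 29811991 to 29824312) encodes cyclin E1, the partner of the kinase CDK2 at the entry to S phase. It was read at 16.8, 16.6 and 17.2 FPKM in 2KR-MYB cultures and at 21.8, 22.9 and 23.9 FPKM in ANAA-MYB cultures. All ANAA-MYB cultures lay above all 2KR-MYB cultures, and the 2KR-MYB cultures were the most alike of any member. The means were 16.9 ± 0.267 and 22.9 ± 1.06 FPKM (SD, n = 3 each), a ratio of 1.36 of ANAA-MYB over 2KR-MYB. The log2 fold change was -0.42 (SE 0.05, 95% interval -0.54 to -0.30, limma adjusted p = 0.00109), and the call held under every alternative. CCNE1 therefore moved opposite to KIT in the same 6 libraries. The level of KIT relative to CCNE1 was 0.404 ± 0.0231 in the 2KR-MYB rescue and 0.155 ± 0.0294 in the ANAA-MYB rescue (SD, n = 3 each).

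BCL2 (ENSG00000171791, chromosome 18, 63123346 to 63320090) encodes the mitochondrial protein that blocks apoptosis. It was measured at 0.382, 0.440 and 0.364 FPKM in 2KR-MYB cultures and at 0.338, 0.305 and 0.277 FPKM in ANAA-MYB cultures. The 2KR-MYB cultures all lay above the ANAA-MYB cultures, but by little, and the mean over all 6 was 0.351 FPKM, under the filter. BCL2 averaged 0.395 ± 0.0399 and 0.307 ± 0.0304 FPKM (SD, n = 3 each), a ratio of 1.29. Without the filter its log2 fold change was 0.09 (95% interval -0.01 to 0.20) with a limma adjusted p of 0.257, so no difference was shown at this level of expression. A pseudogene, LOC124904379, lies within the locus.

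**Figure D2:**
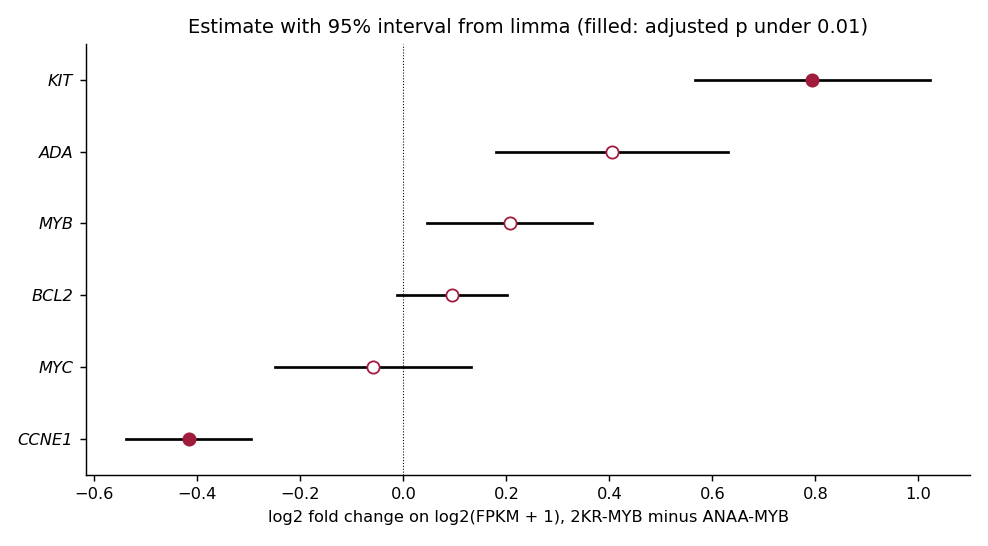
Log2 fold change on log2(FPKM + 1), 2KR-MYB minus ANAA-MYB, of MYB and the 5 members on the horizontal axis, with points at the limma estimate (filled where the adjusted p was under 0.01) and bars for its 95% interval, BCL2 from the fit without the filter. The interval of KIT runs from 0.57 to 1.02 and that of CCNE1 from -0.54 to -0.30, while those of MYC and BCL2 cross 0.

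Compared per length, the order of the levels was MYC, CCNE1, KIT, ADA and BCL2 in all 6 libraries, and the ranges of neighbours in this order over the 6 libraries did not overlap. MYC exceeded CCNE1, the next in order, by 6.64 to 9.80 times, CCNE1 exceeded KIT by 2.34 to 8.14 times, and KIT exceeded ADA by 2.29 to 3.88 times. The spread over cultures, as a coefficient of variation, was lowest for CCNE1 in the 2KR-MYB rescue at 1.58% and highest for KIT in the ANAA-MYB rescue at 14.8%. In bulk RNA, fewer cells that express a gene and less mRNA per cell cannot be told apart for any of these genes.

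The genes that act with the members in their pathways were then followed in the same test. Of the 16 tested genes of KIT signalling, KIT included, 2 were higher in the 2KR-MYB rescue and 3 in the ANAA-MYB rescue, which is 31.2% against the 13.0% of all tested genes. The median log2 fold change was 0.11, against -0.02 over all. CBL, the ubiquitin ligase that sends activated receptors to degradation, stood with KIT at 18.9 ± 0.176 against 14.9 ± 0.468 FPKM (log2 fold change 0.32). The adaptor DOK1, a docking protein that dampens kinase signals, was at 10.8 ± 0.464 against 14.9 ± 0.494 FPKM (-0.43). SH2B3, also known as LNK, an inhibitor of cytokine receptor signalling, was at 19.1 ± 0.350 against 23.7 ± 0.180 FPKM (-0.30). STAT5A, the transcription factor activated downstream of the receptor, was at 113 ± 2.63 against 144 ± 13.9 FPKM (-0.34). These pairs are the 2KR-MYB and the ANAA-MYB mean with SD over 3 cultures each. Genes that dampen the pathway were called in both directions, CBL higher with 2KR-MYB, DOK1 and SH2B3 higher with ANAA-MYB. CBL, SH2B3 and STAT5A each lost the call under some alternatives, DOK1 under none. The ligand KITLG was under the filter, at 0.591 ± 0.151 and 0.243 ± 0.108 FPKM.

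In the G1/S cell cycle list all 22 genes were tested, with 2 higher in the 2KR-MYB rescue and 3, CCNE1 among them, higher in the ANAA-MYB rescue. Together these calls were 22.7% of the list, against 13.0% of all tested genes. Without CCNE1, 4 of 21 genes were called, with CCND1, described below, among them, so no excess is read from this share. The median of the list was 0.02. CDKN1A, the p21 inhibitor of cyclin-dependent kinases, was read at 10.0, 10.7 and 8.51 FPKM in 2KR-MYB cultures and at 3.59, 4.03 and 3.37 FPKM in ANAA-MYB cultures. No culture of one rescue came near the range of the other, and the ratio was 2.66 (log2 fold change 1.20, limma adjusted p = 0.000136). CCND1, the cyclin D1 that partners CDK4 and CDK6, showed 0.586, 0.409 and 0.378 FPKM against 2.97, 3.20 and 3.08 FPKM. It passed the filter only through its level in the ANAA-MYB rescue, so nothing is read from its call, which is 1 of the 3, and its log2 fold change of -1.49 is a description. CDK6, a kinase partner of the D-type cyclins, was at 32.9 ± 0.668 against 41.5 ± 2.96 FPKM (-0.32) and CDKN1B, the p27 inhibitor, at 25.2, 25.7 and 24.1 FPKM against 20.7 to 20.8 FPKM (0.26). CDKN1B was named after its values were seen, as the remaining call of the list, and both it and CDK6 lost the call under some alternatives. CCND3, the most abundant member of the list, was at 123 to 127 FPKM and at 115 to 127 FPKM.

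Around MYC, 12 of 13 genes of its network of dimerising factors were tested, with a median of 0.09. Of these, 2 were higher in the 2KR-MYB rescue and 1 in the ANAA-MYB rescue, 25% against 13.0% of all tested genes. MXD1, which competes with MYC for the partner MAX and represses the same sites, was at 20.0, 19.3 and 16.4 FPKM in 2KR-MYB cultures and at 13.9, 13.9 and 12.2 FPKM in ANAA-MYB cultures. The groups were separate, with a ratio of 1.39 (log2 fold change 0.45, limma adjusted p = 0.00714). MLXIPL, the glucose-responsive factor ChREBP, was at 2.50 ± 0.0921 against 1.29 ± 0.318 FPKM (0.62), whereas its partner MLX was at 34.8 ± 2.46 against 46.7 ± 0.611 FPKM (-0.41). MLX kept its call under every alternative, while MXD1 and MLXIPL fell short under some. MYC itself was the most abundant gene of the list, and MYCN was listed at 0 in all libraries.

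Of the 14 genes that MYC is known to activate, all were tested and 1 passed, TFRC, the transferrin receptor. TFRC was at 217 ± 7.26 against 266 ± 16.3 FPKM (log2 fold change -0.29, limma adjusted p = 0.00784), a call lost under most alternatives. The log2 fold changes of all 14 lay below 0, but only 9 of them did with upper quartile scaling and 11 with quantile normalization, and 13 did not pass. The median was -0.10, against -0.02 over all tested genes. NPM1, a nucleolar protein and the most abundant of the list, was at 1300 ± 71.1 and 1386 ± 101 FPKM and overlapped between rescues. With 7.14% called, this list was not above the background.

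In the BCL2 family, 10 of 16 genes were tested and 1 passed in each direction, 20% in all against 13.0% of all tested genes. The median was -0.11, against -0.02 over all tested genes. PMAIP1, which encodes the pro-apoptotic protein NOXA, was at 52.3, 51.5 and 37.6 FPKM in 2KR-MYB cultures and at 26.1, 25.3 and 27.5 FPKM in ANAA-MYB cultures. The third 2KR-MYB culture was lower than the other 2KR-MYB cultures but still above all ANAA-MYB cultures. The log2 fold change of PMAIP1 was 0.80 (SE 0.12, limma adjusted p = 0.00214). BCL2L1, the gene of the anti-apoptotic BCL-XL and the relative of BCL2 on which erythroid cells depend, was at 48.7 ± 2.93 against 59.7 ± 1.19 FPKM (-0.29, limma adjusted p = 0.00611), and its call was lost under some alternatives, upper quartile scaling included. MCL1, also anti-apoptotic and the most abundant of the family, was at 100.2 ± 4.16 and 97.4 ± 3.39 FPKM. Per length, both MCL1 and BCL2L1 were far above BCL2 in these cells.

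In the list of adenosine and purine salvage, which holds ADA, 14 of 17 genes were tested. Of these, 2 were higher in the 2KR-MYB rescue and 1 in the ANAA-MYB rescue, 21.4% against 13.0% of all tested genes. The median of -0.17 was lower than that of any other pathway list, although most of its genes did not pass. AMPD3, the AMP deaminase of red cells, was at 9.82, 9.79 and 9.55 FPKM against 6.99, 6.76 and 7.25 FPKM (log2 fold change 0.42) and NT5C2, a cytosolic nucleotidase, at 45.8 ± 1.57 against 38.1 ± 1.19 FPKM (0.26). SLC29A1, the nucleoside transporter ENT1, was at 56.9 ± 2.44 against 72.6 ± 2.37 FPKM (-0.35). AMPD3 held under every alternative, and NT5C2 and SLC29A1 did not. AHCY, which hydrolyses S-adenosylhomocysteine and was the most abundant of the list, was at 126 ± 4.60 and 139 ± 7.11 FPKM without passing.

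Of 24 other genes that have been reported as MYB targets, 11 were under the filter, among them markers of myeloid and lymphoid progenitors such as MPO, ELANE and CD34. One of the 13 tested genes passed, 7.69% of them, and the median was 0.01. This was KLF1, the erythroid transcription factor that activates globin genes, at 20.2, 19.8 and 17.6 FPKM in 2KR-MYB cultures and at 30.1, 30.6 and 31.5 FPKM in ANAA-MYB cultures. The groups lay far apart, with a log2 fold change of -0.65 (SE 0.06, limma adjusted p = 0.000326) that held under every alternative. HSPA8, a heat shock protein and the most abundant of the list, was at 2447 ± 126 and 2739 ± 184 FPKM and did not pass. The share of calls in this list was not above that of all tested genes.

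The position of the members was also considered, because each rescue is 1 clone. The median log2 fold change over the 10 tested genes on each side was -0.02 for MYC, 0.07 for BCL2, 0.04 for KIT, -0.00004 for ADA and -0.05 for CCNE1, compared with 0.79 for KIT itself, 0.41 for ADA itself and -0.42 for CCNE1 itself. Over all tested genes 13.0% passed the threshold, 5.57% with a higher level in the 2KR-MYB rescue and 7.42% in the ANAA-MYB rescue. None of the 20 neighbours of CCNE1 passed the threshold. Its nearest tested neighbours, C19orf12 and URI1, had log2 fold changes of -0.19 and -0.05. Of the 20 neighbours of KIT, 2 passed and both were higher in the 2KR-MYB rescue, as 5.57% of all tested genes were. One was the nearest on one side, CHIC2, at 0.37 (limma adjusted p = 0.00619), while SRD5A3 on the other side was at 0.04. Of the neighbours of ADA, 2 passed in the direction of the 2KR-MYB rescue, 1 of them, OSER1-DT, also named after its values were seen, with a mean under the filter in the ANAA-MYB rescue, and 1 passed in the other. The nearest were PKIG, a protein kinase inhibitor gene, at 0.38 (limma adjusted p = 0.00889) and YWHAB at -0.0024. CHIC2 and PKIG lost the call under some alternatives. Around BCL2, 5 of 20 neighbours passed, all higher in the 2KR-MYB rescue, as 5.57% of all tested genes were, and PMAIP1 was one of them. Another 2 of the 5, SERPINB8 and CYB5A, named after their values were seen, passed the filter only through their level in the 2KR-MYB rescue, so nothing is read from this count. PHLPP1 and KDSR beside BCL2 were at 0.09 and -0.0017. Around MYC, 3 neighbours were higher in the 2KR-MYB rescue and 1 in the ANAA-MYB rescue, with the pseudogene SOD1P3 at 0.70 and the lncRNA PVT1 at -0.01 on either side. What part position has in the differences of KIT and ADA was not tested.

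The profile of each member over the 6 libraries was finally matched with that of every tested gene. The points share the rescue and the clone, so a high Pearson r between genes that differ between rescues is mostly the difference between 2 groups of 3 libraries. The genes most like KIT were PARP16 (r = 0.998), which encodes an ADP-ribosyltransferase of the endoplasmic reticulum, and SLAMF7 (r = 0.997), an immune receptor at 11.3 ± 0.714 against 4.56 ± 0.722 FPKM. Closest to ADA were XBP1, a transcription factor of the unfolded protein response, and CDKN3, a cell cycle phosphatase, both at r = 0.995. For CCNE1, TUBAL3 (r = 0.9995), a tubulin gene, is given. The profile of MYC, which did not follow the rescue, was most like those of MALSU1 (r = 0.992) and RBM42 (r = 0.987), and that of BCL2 most like CHMP4C (r = 0.995) and EDEM1 (r = 0.990). An r above 0.9 was shared by 94 tested genes with MYC, 330 with BCL2, 897 with KIT, 961 with ADA and 1500 with CCNE1.

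Markers of the cell type were read beside these results. All 13 erythroid and K562 markers were above the filter, HBG2 the highest, and their summed level was 1885 to 2012 FPKM in 2KR-MYB cultures and 2116 to 2507 FPKM in ANAA-MYB cultures. KLF1, TFRC and GATA1, the last an erythroid master factor at 78.2 ± 2.96 against 107 ± 3.44 FPKM, were higher in the ANAA-MYB rescue. Summed B cell markers were at 2.24 to 2.52 and 2.27 to 2.41 FPKM, with MS4A1 at 0 throughout. Summed T cell markers were at 26.7 to 31.6 against 44.5 to 65.6 FPKM, nearly all of it CD3D at 27.8 ± 2.47 against 52.9 ± 9.97 FPKM, with CD3E, CD2 and CD247 under the filter and CD3G at 0.406 ± 0.173 against 2.05 ± 0.585 FPKM, above the filter only in the ANAA-MYB rescue. Monocyte and granulocyte markers summed to 10.3 to 13.0 against 20.0 to 25.1 FPKM, nearly all of it LYZ at 9.11 to 12.1 against 19.1 to 24.2 FPKM, with the other 4 under the filter. Fibroblast and epithelial markers summed to 50.6 to 54.1 against 46.7 to 48.3 FPKM, mostly EPCAM. Among them COL1A1 was called higher in the 2KR-MYB rescue, at 2.13 ± 0.764 against 0.553 ± 0.126 FPKM, above the filter only there. COL1A2 was called in the other direction, at 1.06 ± 0.0969 against 2.42 ± 0.492 FPKM. Erythroid, T cell and monocyte markers, and COL1A1 and COL1A2 in opposite directions, therefore differed between the rescues together with KIT and CCNE1. The part of these markers in the differences of KIT and CCNE1 was not tested.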

How the data were processed

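Poly(A) RNA of 3 cultures of each rescue was read as 150 bp pairs from stranded libraries. According to the submitters' processing notes, the authors demultiplexed with bcl2fastq 2.18.0.12, trimmed with Trimmomatic 0.36, aligned to GRCh38 with TopHat2 2.1.1 and ran Cufflinks and Cuffdiff 2.2.1. The authors deposited FPKM per gene and replicate, while their gene annotation and library scaling were not given in the sources used here. The 12 other columns of per-sample values were not used. Of values under 0.5 FPKM, at most 3.90% of the ratios between libraries fell in a window of 1%, so no whole reads were recovered.

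Of 58288 gene IDs, 55854 matched a symbol. Tested were the 12634 genes that averaged 1 FPKM or more across the 6 libraries, on log2(FPKM + 1) computed from the deposited values. The test was that of limma 3.58.1 under R 4.3.3 (rescue as the only term, trended empirical Bayes, two-sided, Benjamini-Hochberg adjustment, threshold 0.01, that of the study). The steps were tested on simulated data. BCL2, under the filter, was taken from the fit without it. Members were compared singly too, with exact two-sided permutations of mean FPKM. Positions, found for 11541 tested genes, and promoters came from RefSeq (GRCh38.p14). Tables and figures were made with Python 3.11.15, numpy 2.4.6, pandas 2.3.3, scipy 1.17.1 and matplotlib 3.10.9.

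The genes named are MYB, the members, of each list at most 4 genes past the threshold and its most abundant gene, the 2 tested genes most like each member, and its nearest tested neighbours. A few results of this kind are not reported here. Other genes are named as examples of what is under the filter or as cell type markers. The members and lists were chosen with earlier results of these data known. The alternatives were pseudocounts of 0.1 and 0.01, leaving out the filter or raising it to 5 FPKM, scaling by the upper quartile, normalizing quantiles, robust empirical Bayes, a block for the replicate number, removal of 1 library at a time, 0.05 as threshold, and 5 or 25 neighbours on each side.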

Additional observations from a re-analysis of the deposited data

How the results depend on the processing

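KIT and CCNE1 kept their call and direction under all 15 alternatives, with log2 fold changes of 0.70 to 0.96 and of -0.45 to -0.36. ADA kept its direction and passed only at the threshold of 0.05, where its log2 fold change of 0.41 counts as a call. BCL2 passed nowhere without the filter, at 0.05 to 0.36 over alternatives of which the combinations with no filter were chosen after seeing the data, and it was below both filters on low values, as ADA was below that of 5 FPKM. The difference of MYC, 0.0023 with upper quartile scaling and -0.11 to 0.034 with a library left out, changed sign. With the median of all genes moved from -0.02 to 0.04 by upper quartile scaling, 898 calls were higher in the 2KR-MYB rescue and 651 in the ANAA-MYB rescue, 58.0% against 42.9% as reported and 49.6% with quantile normalization. All calls numbered 942 without the filter, 3402 at the threshold of 0.05 and 852 to 1204 with a library left out, compared with 1642 as reported. Leaving out a library left 1 to 2 calls among the other reported MYB targets, 1 to 2 in the MYC network, 0 to 1 in the genes activated by MYC, 1 to 2 in the BCL2 family, 2 to 4 in KIT signalling, 1 to 2 in purine salvage and 3 to 4 in the G1/S cell cycle, fewer or as many as reported except among the other reported MYB targets, and the cause was not tested. Without the filter there were 1 in the MYC network, 0 in the genes activated by MYC and 0 in the BCL2 family. Upper quartile scaling gave 2, 0, 1 and 3 calls for the other reported targets, the genes activated by MYC, the BCL2 family and KIT signalling, and quantile normalization gave 2 for the other reported targets and 0 for the genes activated by MYC. At the threshold of 0.05 there were 4 among other reported targets, 2 among genes activated by MYC, 8 in KIT signalling and 9 in purine salvage. The median around ADA was 0.09 with 5 neighbours on each side. Of genes not called, some changed sign: CCND3 (-0.031 to 0.039), MALSU1 (-0.29 to 0.019), RBM42 (-0.16 to 0.061) and SRD5A3 (-0.032 to 0.074) with a library left out, PVT1 (-0.071 to 0.076 so, 0.051 with upper quartile scaling and 0.021 with quantile normalization), KDSR (-0.059 to 0.097, 0.052 and 0.0087), YWHAB (-0.029 to 0.036, 0.059 and 0.044) and URI1 (-0.11 to 0.00060, 0.015 with upper quartile scaling).

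Replicate numbers are shared by the rescues, but same-numbered libraries did not deviate together (correlation of deviations -0.05 to -0.0026), and 0 of 6 libraries correlated best with its own number. With the replicate number as a block 1089 genes passed, KIT and CCNE1 among them, with 0 calls in the genes activated by MYC, 2 in KIT signalling and 3 in the G1/S cell cycle. Depth is unknown, which limits what can be said of BCL2 and ADA.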
